A study of Homo sapiens with 6 samples.

Results

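The interleukin 1 family genes described here are 10 of the 54259 genes in the count table: the ligands IL1A, IL1B, IL18 and IL33, the receptor antagonist IL1RN, the receptor genes IL1R1, IL1RAP and IL1RL1, and the kinase genes IRAK1 and IRAK2. They were found by their symbols. The list was drawn up with the values of this same contrast, shBry against shNC, already known and so counts as selected on them, and the fold changes of the 10 genes are a description and carry no p-value. RNA-Sequence was performed on MDA-MB-231 cells, an established human breast cancer line, that carried a short hairpin RNA directed at brachyury (MDA-MB-231 shBry, 3 libraries) or a negative control hairpin (MDA-MB-231 shNC, 3 libraries). The comparison asks which transcripts differ when brachyury, a T-box transcription factor, is targeted. The labels do not say whether the 3 libraries of a group came from separate cultures or how many hairpin clones they represent, so p-values measure the spread between these libraries, which may be technical. Of the 10 genes, 7 had enough counts for the fit over all genes.

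The libraries held 19319411 to 22985371 counts. Brachyury (TBXT, listed as T) had 0 counts in all 6 libraries, which allows up to 0.126 to 0.162 CPM (counts scaled to a common library size) per library at 3 counts, so the knockdown could not be checked on its own transcript. The series text describes the RNA as pericardial and its title concerns lung cancer, whereas the sample labels name breast cancer cells. All 6 markers listed for MDA-MB-231 (VIM, CD44, AXL, CAV1, MSN and S100A4) were detected, with a summed level of 7545 to 7879 CPM in shNC and 6525 to 6751 CPM in shBry, and of 6 markers listed as low or absent, CDH1, ESR1, PGR and KRT5 had at most 2 counts. The other two were present: EPCAM at 1.55 CPM in shNC and 4.28 CPM in shBry, without overlap, and GATA3 with 201 to 247 counts in shNC and 243 to 313 counts in shBry. Of 9 leukocyte markers, PTPRC, TYROBP and LST1 were at 0 in every library and the summed level of the list without CD68, whose exons mostly overlap another gene, was 3.06 to 3.16 CPM in shNC and 5.01 to 6.36 CPM in shBry. Most of that sum was ITGAM, which went from 1.05 to 4.94 CPM, and CD14, which went the other way from 1.85 to 0.759 CPM. Of 6 lung epithelial markers, SFTPB, SFTPC and SCGB1A1 were at 0 and the summed level was 36.0 to 43.1 CPM in shNC and 18.6 to 22.8 CPM in shBry, most of it NKX2-1. The 6 mesothelial markers, of which ITLN1 was at 0, summed to 40.2 to 42.1 and 51.4 to 57.7 CPM, and the 4 endothelial markers to at most 1.23 and 0.665 CPM. Most of the mesothelial sum was MSLN (32.1 CPM in shNC and 45.9 CPM in shBry), and CALB2 was uneven in shNC, with 30, 29 and 222 counts. The part of these differences in the results was not tested.

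Interleukin 1 is an alarm cytokine of epithelia, stroma and tumours. Its agonists, interleukin 1 alpha (IL1A) and interleukin 1 beta (IL1B), bind IL1R1, which then recruits the accessory chain IL1RAP, and the receptor antagonist encoded by IL1RN occupies IL1R1 without recruiting it. The paired intracellular domains gather MYD88 and the IRAK kinases, pass the signal through TRAF6 to NF-kappa-B and MAP kinases, and switch on chemokine and cytokine genes, IL1A and IL1B among them.

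The largest differences within the family were those of the agonists. IL1A went from 2.78 ± 0.580 to 314 ± 31.9 CPM and IL1B from 1.31 ± 0.419 to 44.7 ± 3.51 CPM (SD, n = 3 libraries per group), and the receptor and kinase genes IL1RAP and IRAK2 were 2.08-fold and 3.23-fold higher in shBry. IL18, IL1R1 and IRAK1 did not reach the threshold, and IL1RN, IL1RL1 and IL33 were at or near 0 counts. In these bulk samples, more cells that express a gene and more RNA per cell cannot be told apart.

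The proximal upstream sequences of the agonist and antagonist genes are shown because the agonists stood far apart between the groups and the antagonist was not detected in either. RefSeq sequences on GRCh38.p14 were read from 250 bases before the annotated start, and only the part outside annotated exons is printed, 5′ to 3′ on the strand of the gene. Capitals mark a TATA motif (TATAAA) in IL1A and an AP-1 motif (TGANTCA) in IL1RN, and no motif searched was found in the IL1B stretch. The IL1A TATAAA lies 239 bases before its start. IL1RN has other annotated starts whose windows are not printed, and TATAAA lies 30 bases before the start at chr2:113127598.
IL1A, chr2:112784591-112784743, minus strand: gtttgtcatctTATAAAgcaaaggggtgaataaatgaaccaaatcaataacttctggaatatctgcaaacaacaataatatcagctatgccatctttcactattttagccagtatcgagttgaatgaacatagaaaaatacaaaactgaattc
IL1B, chr2:112836904-112837029, minus strand: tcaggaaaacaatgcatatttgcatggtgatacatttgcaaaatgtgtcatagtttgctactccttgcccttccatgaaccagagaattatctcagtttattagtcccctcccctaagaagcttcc
IL1RN, chr2:113117721-113117892, plus strand: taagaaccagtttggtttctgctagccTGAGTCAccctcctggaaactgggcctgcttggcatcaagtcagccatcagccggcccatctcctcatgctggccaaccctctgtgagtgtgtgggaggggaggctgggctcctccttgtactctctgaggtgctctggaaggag

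Closer to the IL1A start, where the window runs into an annotated first exon, lay an AP-1 motif and a core of the cyclic AMP response element (TGACG), each printed here in a stretch of 30 bases with the motif in capitals.
IL1A AP-1, chr2:112784494-112784523, minus strand: acaaaaggcgaagaagacTGACTCAggctt
IL1A CRE core, chr2:112784553-112784582, minus strand: aaattccccgtttTGACGacgcacttgtag

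Motifs were searched on both strands in the 250 bases before the start. The windows found for the 10 genes covered 9 of them, IL18 having no entry, and numbered 17 since some genes have several starts. The AP-1 motif was found for 3 of the 9 genes (IL1A, IL1RN and IL1RL1), against 6.6% of 27305 genes with 1 window each. The CRE core was found for IL1A alone, against 21.66% of all genes, and TATAAA for 4 genes against 11.13%. The NF-kappa-B consensus was found in 0 of the 17 windows, against 5.05% of all genes, so these letters are not in this short stretch. The shares of the members count any of several windows per gene, whereas the share of all genes counts 1, and a match is a description of the letters and not a site.

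IL1A encodes interleukin 1 alpha, which is active as the uncleaved precursor and is released from damaged cells. The gene lies on chromosome 2 at chr2:112773915-112784590 on the minus strand (GRCh38, GENCODE 29). It had 46, 66 and 62 counts in the shNC libraries and 5527, 8328 and 6635 counts in the shBry libraries. Normalised to library size, these were 2.11, 3.12 and 3.11 CPM in shNC and 298, 351 and 294 CPM in shBry. Every shBry library was far above every shNC library, with a log2 fold change of 6.82 (SE 0.14), or 113-fold.

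IL1B encodes interleukin 1 beta, a precursor that is inactive until it is cleaved, classically by caspase 1 in the inflammasome. It lies 45.2 kb from IL1A at chr2:112829751-112836903, on the same strand. Its counts were 20, 37 and 25 in shNC and 827, 979 and 1089 in shBry, or 0.916, 1.75 and 1.25 CPM against 44.5, 41.3 and 48.3 CPM. The groups did not overlap, and the log2 fold change was 5.09 (SE 0.18), or 34.1-fold.

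IL18, another ligand that is cleaved by caspase 1, had 47, 40 and 78 counts in shNC and 51, 61 and 67 in shBry (chr11:112143251-112164117, minus strand). The mean levels of 2.65 ± 1.10 and 2.76 ± 0.200 CPM overlapped, with shNC replicate 3 highest of the 6 libraries. The log2 fold change was 0.06 (SE 0.27). IL33, a nuclear alarmin of barrier cells (chr9:6215786-6257983, plus strand), had 0 counts in 5 libraries and 1 count in shBry replicate 2.

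IL1RN, the receptor antagonist, had 0 counts in all 6 libraries (chr2:113107214-113134016, plus strand), although it lies 322.6 kb from IL1A in the same cluster. Its annotated exons overlap those of no other gene, and of the 26 other protein-coding genes within 1 Mb of it, 5 (19.2%) were at 0 in every library, near the 19.5% of all 18755 coding genes matched to the annotation. A count of 0 allows at most 0.126 to 0.162 CPM per library, so the antagonist was not detected at this depth.

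Set against the agonists, that limit was very unequal between the groups. Levels of different genes are compared only as CPM per kb of exon. With IL1RN placed at its limit of 3 counts, the antagonist could reach 3.28, 2.14 and 2.47% of the summed IL1A and IL1B level in the shNC libraries, and 0.0321, 0.0217 and 0.0265% in the shBry libraries. With the longest coding transcript as the length in place of the union of exons, the limits were 4.60, 2.90 and 3.51% in shNC and 0.0502, 0.0345 and 0.0412% in shBry. These are limits on the ratio and not measured ratios, and they differ because the agonist level differs. The corresponding ratio of the receptor gene IL1RL1 to its ligand IL33 could not be formed, since both were at or near 0.

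**Figure D1:**
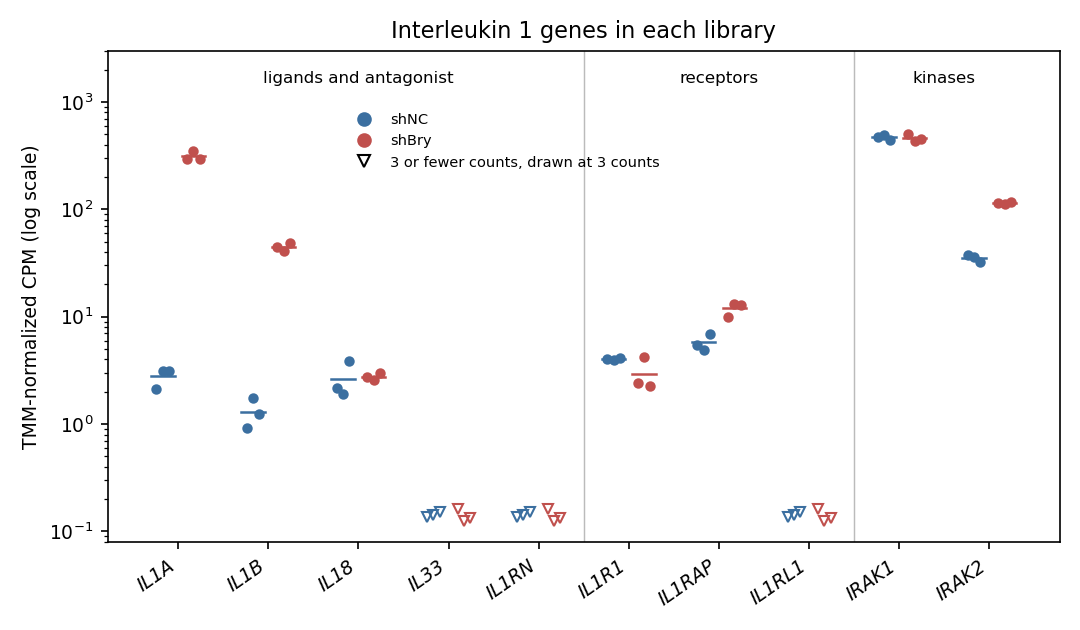
TMM-normalised CPM on a log axis for the 10 genes, with 1 point per library and a line at the mean of 3 libraries (shNC blue, shBry red). Open triangles stand at the CPM of 3 counts for libraries with 3 or fewer counts. IL1A, IL1B, IL1RAP and IRAK2 separate the groups, IL18 and IL1R1 overlap, and IL33, IL1RN and IL1RL1 lie at the limit of detection.

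IL1R1, the receptor that binds both agonists, had 89, 83 and 82 counts in shNC and 45, 99 and 51 in shBry (chr2:102064544-102179874, plus strand). The shNC libraries lay close together at 4.08, 3.92 and 4.11 CPM. The shBry libraries were spread over 2.42, 4.17 and 2.26 CPM, with replicates 1 and 3 below and replicate 2 above every shNC library. The log2 fold change was -0.44 (SE 0.24) and did not reach the threshold, and without shBry replicate 2 it was -0.80 and past it.

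IL1RAP, the accessory chain shared by the receptors for interleukin 1, interleukin 33 and interleukin 36, had 120, 104 and 138 counts in shNC and 184, 313 and 288 in shBry (chr3:190514051-190659750, plus strand). These were 5.50, 4.92 and 6.91 CPM against 9.91, 13.2 and 12.8 CPM. The groups did not overlap, and the log2 fold change was 1.05 (SE 0.17). The ratio of IL1R1 to IL1RAP per kb was 116 ± 17.2% in shNC and 40.1 ± 11.4% in shBry (SD, n = 3). With the longest coding transcript as the length it was 74.9 ± 11.1% and 25.9 ± 7.33%, so which of the genes was higher in shNC depends on the length used, while the ratio was lower in shBry either way. Annotated exons of another gene cover 4.63% of the IL1RAP exon bases.

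IL1RL1, the interleukin 33 receptor, had 0 counts in every library (chr2:102311502-102352037, plus strand). Of the 12 other coding genes within 1 Mb, 1 was at 0, and the receptor genes IL1R2, IL1RL2 and IL18RAP had at most 4 counts in any library. Neither the gene for this receptor nor that for its ligand was therefore detected above 1 count.

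IRAK1 and IRAK2 encode kinases that join the MYD88 complex at the activated receptor. IRAK1 (chrX:154010500-154019980, minus strand) had 10347, 10339 and 8884 counts in shNC and 9308, 10330 and 10206 in shBry. Its level of 469 ± 22.3 CPM in shNC and 463 ± 34.1 CPM in shBry differed by less than the spread between replicates, with a log2 fold change of -0.02 (SE 0.08). IRAK2 (chr3:10164865-10243743, plus strand) had 819, 759 and 650 counts in shNC and 2116, 2650 and 2623 in shBry. It stood at 37.5, 35.9 and 32.6 CPM in shNC and at 114, 112 and 116 CPM in shBry, with a log2 fold change of 1.69 (SE 0.09). The level of IRAK2 per kb was 8.64 ± 0.389% of that of IRAK1 in shNC and 28.4 ± 1.95% in shBry.

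Of the 7 genes with enough counts, 4 (IL1A, IL1B, IL1RAP and IRAK2) were past the threshold of an adjusted p under 0.05 and a fold change above 1.5, and the same 4 did not overlap between the groups, all higher in shBry. Among all 15277 genes tested, 32.4% were past that threshold, 17.1% higher and 15.2% lower in shBry, and 59.5% did not overlap. Since the genes were selected with these results known, nothing is read from the count. The median log2 fold change of the 7 was 1.05 and that of all genes 0.03.

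Per kb of exon, the order of the 7 genes in shNC was IRAK1 at 117, IRAK2 at 10.1, IL1A at 1.31, IL18 at 1.01, IL1R1 at 0.570, IL1RAP at 0.500 and IL1B at 0.422 CPM per kb. The ranges over libraries overlapped between IL1A and IL18, between IL1R1 and IL1RAP and between IL1RAP and IL1B. In shBry, IL1A came first at 148, followed by IRAK1 at 116, IRAK2 at 32.7, IL1B at 14.4, IL18 at 1.05, IL1RAP at 1.03 and IL1R1 at 0.417 CPM per kb, and only IL18 and IL1RAP overlapped among neighbours in that order. With the longest coding transcript as the length the shNC order after IRAK2 became IL18 at 2.31, IL1A at 1.31, IL1RAP at 1.07, IL1B at 0.801 and IL1R1 at 0.785 CPM per kb, with overlap from IL1A on between neighbours. The shBry order was the same with either length, with IL1A as the leading ligand transcript. IL1B stood at 29.8, 38.5 and 27.7% of IL1A per kb in the shNC libraries and at 10.3, 8.06 and 11.3% in the shBry libraries. With the longest coding transcript as the length, the means were 60.7% in shNC and 18.7% in shBry.

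**Figure D2:**
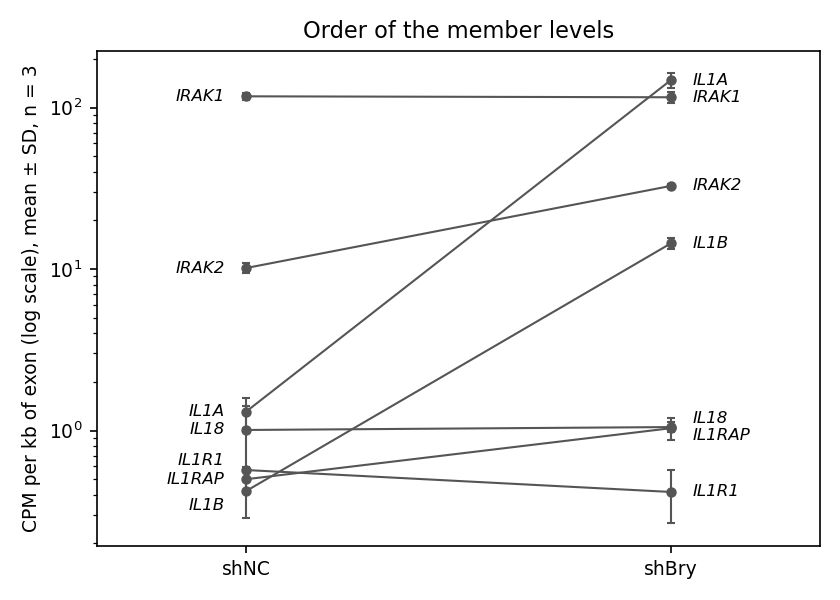
Mean level with SD (n = 3 libraries) of the 7 genes with enough counts, in CPM per kb of exon on a log axis, in shNC at the left and shBry at the right. The lines of IL1A and IL1B cross several others on the way from 1.31 to 148 and from 0.422 to 14.4 CPM per kb, while those of IRAK1 and IL18 run nearly level.

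The remaining genes of the pathway were taken from lists of general knowledge, and their p-values are those of the fit over all 15277 genes, adjusted by the Benjamini-Hochberg method. The other ligands and decoys were almost silent. IL36A, IL36B, IL36G, IL36RN and IL1F10 had 0 counts in all libraries, and IL37 had 0 in every shNC library and 3, 5 and 5 counts in shBry. Only IL18BP, a secreted decoy that binds interleukin 18, could be tested. It had 165, 170 and 134 counts in shNC and 67, 73 and 67 in shBry, and fell by 1.21 on the log2 scale (SE 0.18, edgeR adjusted p = 5.3e-05), with no overlap between the groups.

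Of the other receptor genes, 3 of 7 could be tested and 1 passed, SIGIRR, which encodes an inhibitory receptor of the family. SIGIRR had 374, 327 and 255 counts in shNC and 42, 74 and 45 in shBry, and went from 15.1 ± 2.20 to 2.46 ± 0.587 CPM. Its log2 fold change was -2.61 (SE 0.19, edgeR adjusted p = 7.6e-08). IL1R2, the decoy receptor that takes up interleukin 1 without signalling, had 1, 0 and 0 counts in shNC and 3, 2 and 4 in shBry, too few to be tested. IL18R1, the interleukin 18 receptor chain, had a log2 fold change of 0.10 (edgeR adjusted p = 0.77). IL1RAPL1, a relative of the accessory chain, had 0.50 (edgeR adjusted p = 0.094), and without shBry replicate 1 it passed at 0.67 (adjusted p = 0.0341), which made 2 receptor genes called. IL18RAP and IL1RL2 had at most 2 counts, and IL1RAPL2 had 0.

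Both genes called in these short lists, IL18BP and SIGIRR, encode proteins known to restrain cytokines of this family, and each was lower in shBry. IL37 and the decoy IL1R2, also known to restrain the family, had the few counts above, which were higher in shBry. Without the expression filter IL37 was called, higher. As each list had 1 called gene, no count over the lists is read from this.

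Of 24 listed genes for maturation and release of the ligands found in the table, 17 were tested, of which 5 were higher and 2 lower, or 41.2% against 32.4% of all genes, with a median log2 fold change of 0.28. CASP4, an inflammatory caspase that senses lipopolysaccharide, rose from 31.1 ± 2.22 to 61.7 ± 3.93 CPM (log2 fold change 0.99, SE 0.10, edgeR adjusted p = 1.3e-06). HAX1, whose product binds the interleukin 1 alpha precursor, rose from 167 to 309 CPM (0.88 on the log2 scale, edgeR adjusted p = 5.7e-06). CAPN1, a calpain subunit of the protease class that cleaves the interleukin 1 alpha precursor, fell by 0.68 on the log2 scale (edgeR adjusted p = 1.9e-05). NLRP1, an inflammasome sensor, rose by 0.66 on the log2 scale (edgeR adjusted p = 5.9e-05), and without shBry replicate 2 its log2 fold change of 0.57 was under the fold limit. The other called genes were NINJ1 (0.63) and PANX1 (0.62), higher, and CARD8 (-0.63), lower, all on the log2 scale. These were also near the fold limit. CARD8 lost its call without shBry replicate 1 and without shNC replicate 3, and in the latter NINJ1 or PANX1 lost it too.

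Transcripts of the caspase and adaptor of the canonical inflammasome were few in both groups. CASP1, the caspase that cleaves the interleukin 1 beta precursor, had 9, 11 and 9 counts in shNC and 10, 13 and 12 in shBry. PYCARD, the adaptor that links sensor and caspase, had 4, 0 and 4 counts in shNC and 0, 1 and 4 in shBry, and 59.66% of its exon bases overlap another annotated gene, so that its counts are uncertain. The sensor NLRP3 was measured at 132, 150 and 121 counts in shNC and 169, 257 and 190 in shBry, with a log2 fold change of 0.56 (edgeR adjusted p = 0.0083), inside the fold limit. The transcript counts say nothing of cleaved or secreted protein, which was not measured in these files.

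All 30 listed signalling genes between the receptor and the transcription factors were tested, and 0 were higher and 5 lower past the edgeR threshold, or 16.7%, with a median log2 fold change of -0.13. Of all genes 17.1% were higher and 15.2% lower, so the share that was lower is near that of all genes. MAP2K6, a kinase that activates p38, had 76, 60 and 62 counts in shNC and 7, 6 and 4 in shBry, and its log2 fold change was -3.55 (SE 0.33, edgeR adjusted p = 8.3e-07). PELI3, an E3 ligase of the Pellino group that acts on IRAK proteins, fell by 1.30 (edgeR adjusted p = 1.4e-06). ECSIT, an adaptor that binds TRAF6, fell by 0.86 (edgeR adjusted p = 6.3e-06), and MAP3K3, a kinase upstream of NF-kappa-B and MAP kinases, also by 0.86 (edgeR adjusted p = 1.8e-06), all on the log2 scale. The remaining called gene was MAP3K8 at -0.69. MYD88, the adaptor of the receptor, had a log2 fold change of -0.41 and was inside the fold limit. DESeq2 and limma-voom likewise called 0 higher, with 6 and 5 lower. At an unadjusted p under 0.05 with no fold limit, 10 were higher and 13 lower, and the share of all genes at that setting was not counted. With the adjusted p and no fold limit 22 of the 30 were called, 9 higher and 13 lower. At that setting 8139 of all 15277 genes were called, 4279 higher and 3860 lower. With the fold limit but without shBry replicate 1 the count was 8, of which 1 was higher.

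The listed response genes, which interleukin 1 is known to induce in many cells, were mostly higher in shBry. Of 48 genes 40 were tested, and 33 were higher and 1 lower, or 85% called against the 32.4% of all genes, with a median log2 fold change of 2.24. Many of these genes also answer to other signals, and the list was chosen with earlier results known, so that it is no independent evidence of a direction. Leaving out genes with at least 20% of their exon bases shared with another gene, 30 of 36 were higher.

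LCN2, which encodes the iron-binding protein lipocalin 2, had 1, 1 and 3 counts in shNC and 1092, 1233 and 1226 in shBry, or 55.0 ± 3.46 CPM in shBry. CXCL8, the neutrophil chemokine interleukin 8, rose from 1.71 ± 0.292 to 297 ± 11.3 CPM (log2 fold change 7.44, SE 0.12, edgeR adjusted p = 1.9e-14). CSF2, which encodes GM-CSF, rose from 2.05 ± 0.210 to 304 ± 5.98 CPM (7.21, SE 0.11, edgeR adjusted p = 1.6e-14). These levels set CXCL8 and CSF2 beside IL1A in the size of the difference. IL6 rose from 0.427 CPM in shNC to 46.0, 45.9 and 54.6 CPM in the shBry libraries (6.81, SE 0.18, edgeR adjusted p = 2.3e-12), and 20.69% of its exon bases overlap another annotated gene. The gene that went the other way was CCL2, a monocyte chemokine named here after its values were seen, with 71, 80 and 59 counts in shNC and 14, 25 and 32 in shBry (-1.61, SE 0.27, edgeR adjusted p = 0.00018).

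**Figure D3:**
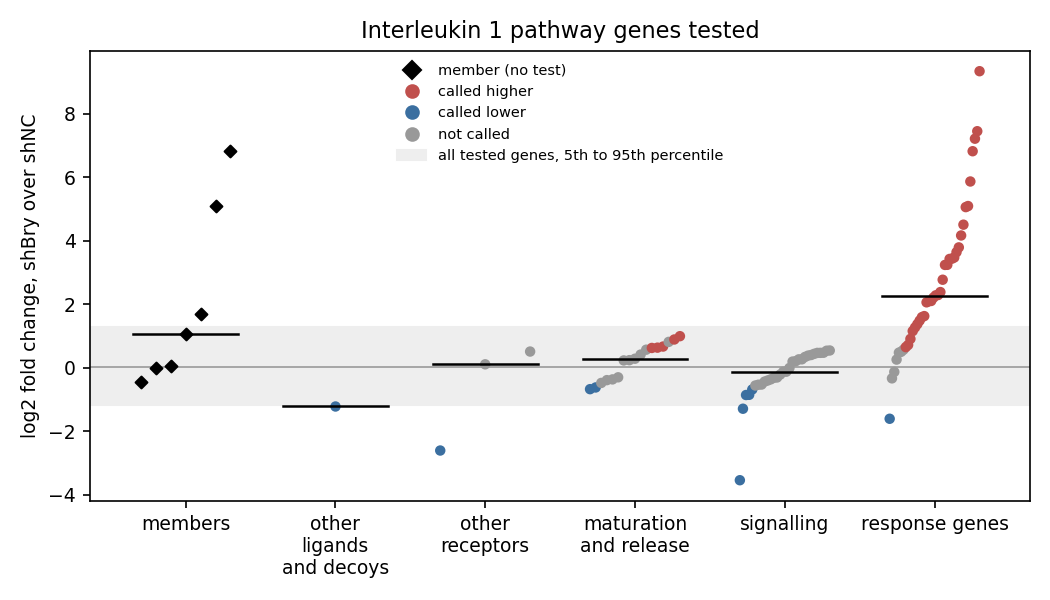
Log2 fold change of shBry over shNC for every tested gene of the 10 described here (diamonds, no test) and of the 5 pathway lists (points, red called higher, blue called lower, grey not called), ordered by size within a list. Black bars are list medians and the grey band holds all tested genes from the 5th to the 95th percentile. The response genes have a median of 2.24 and the signalling genes of -0.13, and the largest response value is LCN2, whose fitted value rests on 1, 1 and 3 counts in shNC.

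The NF-kappa-B consensus, absent from the windows of the interleukin 1 genes, was found in the window of 11 of the 22 response genes that were called higher and had an entry, or 50% against 5.05% of all genes. The list was chosen with earlier results known and then limited to genes called higher. No share was computed for other genes called higher, so the 50% describes these genes only and nothing further is read from it. Of the 4 response genes with the largest differences, IL6 and LCN2 held it and CXCL8 and CSF2 did not. The search required every base of the consensus, and the CXCL8 window holds tggaatttcc, which differs from it in the first base only. An IL1RN window (start at chr2:113127598) likewise holds gggtatttcc, which differs in a single base, and near matches were not counted in any genes. The stretches of IL6 and LCN2 are shown, with the consensus in capitals (GRCh38.p14, RefSeq).
IL6, chr7:22727117-22727146, plus strand: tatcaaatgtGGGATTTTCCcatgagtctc
LCN2, chr9:128149268-128149297, plus strand: cagcactccgGGAATGTCCCtcactctccc

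The genes whose profile was most like that of IL1A, by the root mean square difference in log2 level over the 6 libraries among 9409 genes, were IL6 (0.33), CSF2 (0.33) and CXCL8 (0.43). For IL1B they were CXCL1 (0.38), a neutrophil chemokine, DHRS2 (0.43), a short-chain dehydrogenase, and KCNJ12 (0.56), a potassium channel. As the 6 libraries form 2 groups, likeness here means mainly a difference of like size between shBry and shNC.

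The position of the genes was not used to choose them, and 5 of the 10 lie on chromosome 2 in a ligand cluster (IL1A, IL1B, IL1RN) and a receptor cluster (IL1R1, IL1RL1). Within 500 kb of either cluster lay 41 other genes of the table, of which 18 were tested and 5 were higher and 0 lower by edgeR. These 5 were 27.8% of those tested, against 17.1% of all genes called higher, 15.2% called lower and 32.4% called in either direction. DESeq2 called 4 higher and limma-voom 5, each with 0 lower. At an unadjusted p under 0.05 with no fold limit 11 were higher and 2 lower, and the share of all genes at that setting was not counted, so nothing is read from it. With the adjusted p and no fold limit 12 of the 18 were called, 11 higher and 1 lower, beside 8139 of all 15277 genes, 4279 higher and 3860 lower. In the ligand cluster, 10 of the 18 other coding genes were tested and 4 were higher, beside the 17.1% of all genes, and 5 were at 0 in every library. In the receptor cluster, 4 of 8 were tested and 0 were called by edgeR, with log2 fold changes between -0.54 and 0.45. Of these 4, 3 had an unadjusted p under 0.05, a setting for which the share of all genes was not counted.

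The neighbours of the agonists had smaller differences. CKAP2L, a mitotic spindle gene adjoining IL1A, had a log2 fold change of -0.41 (SE 0.16, edgeR adjusted p = 0.041), inside the fold limit, and SLC20A1, a phosphate transporter gene farther on the same side, had 0.37 (SE 0.08). The called neighbours were PAX8, a transcription factor gene, which rose from 7.94 ± 0.689 to 23.7 ± 3.14 CPM (1.58, SE 0.14, edgeR adjusted p = 4.8e-07), RGPD8 (1.16), ZC3H6 (0.97), the pseudogene RPL23AP7 (0.82) and CBWD2 (0.66). RGPD8, RPL23AP7 and CBWD2 have near-identical copies elsewhere, so reads may be split among copies and their values are uncertain. ZC3H6 lost its call without shBry replicate 2 (adjusted p = 0.089) and without shNC replicate 2 (adjusted p = 0.0779), in each of which 3 neighbours were called, and with DESeq2 at an unchanged fold (0.95, adjusted p = 0.0502).

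**Figure D4:**
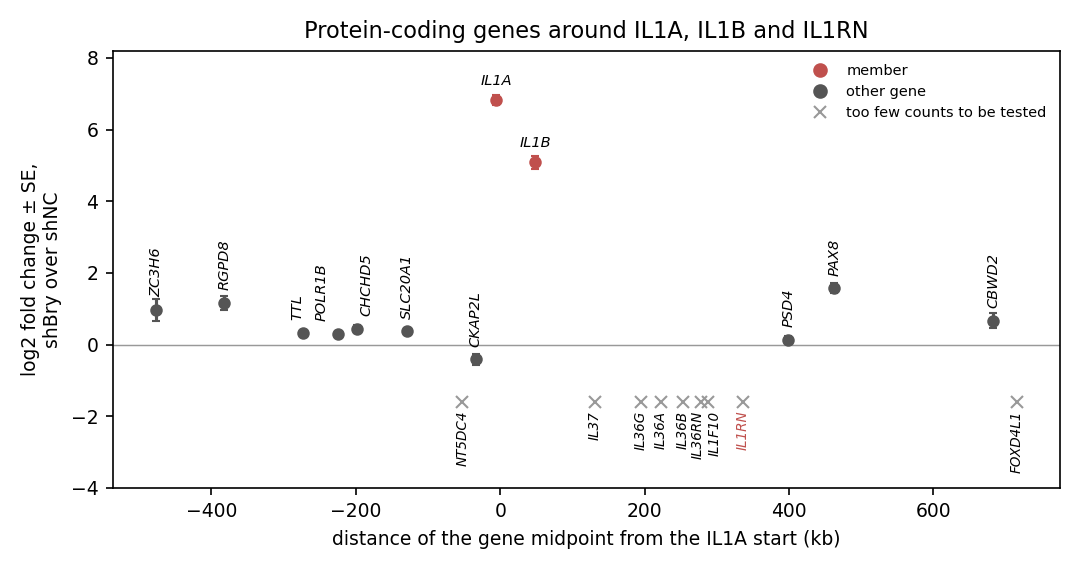
Log2 fold change of shBry over shNC with SE for the protein-coding genes of the ligand cluster against the distance of the gene midpoint from the IL1A start, in kb, positive towards IL1RN. Crosses mark genes with too few counts to be tested. IL1A (6.82) and IL1B (5.09) stand above all neighbours, of which PAX8 is highest at 1.58, and the interleukin 36 genes, IL37, IL1F10 and IL1RN between them and PSD4 were not testable.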

How the data were processed

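Total RNA of 3 MDA-MB-231 shBry and 3 shNC libraries was sequenced. The authors deposited raw counts per gene, with no normalization. The submitters' processing notes name HISAT2 (version 2.0.4), HTSeq and GRCh38. The annotation and strand setting are not given in the sources used here, so reads of overlapping genes may not be told apart. Members and gene lists were chosen with earlier results of these data known.

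Genes were filtered with filterByExpr (minimum count 10), normalised by TMM and fitted with edgeR 4.0.16 (quasi-likelihood F test, R 4.3.3) over all 15277 genes. Genes were called at a Benjamini-Hochberg adjusted p under 0.05 and a fold change above 1.5. No p-value is given for members. The scripts were tested on simulated data. Replicates of a group differed by more than counting noise (chi-square per degree of freedom 4.97 to 16.8), so no library was a copy of another. The 3-count limits cover counting error only.

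All members, per list the 4 called genes that changed most (mean level 1 CPM or more, groups apart), all genes of the short ligand and receptor lists, the 3 most alike profiles (mean at least 10 CPM) and adjoining chromosome 2 genes were named, and other called genes were added where a count was 5 or fewer or to complete a list. Of 54259 symbols, 34628 matched 1 gene of GENCODE 29, which gave lengths (union of exons) and positions. The alternatives tried were raw library sizes, DESeq2 1.42.0, limma-voom 3.58.1, other filters and thresholds, the replicate number as a block, and each library left out.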

Additional observations from a re-analysis of the deposited data

How the results depend on the processing

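The fold changes of the 7 fitted members moved by less than the spread between replicates in 84 of 84 alternatives, and no called one changed sign. That spread was the combined SD of both groups on the log2 scale. Leaving 1 library out of 3 can hardly move a mean by that much, so those alternatives could not fail it. IL1R1 stayed within it although its log2 fold change went from -0.44 to -0.80, past the threshold, without shBry replicate 2. Among 20 other named genes that were followed singly, 232 of 237 values kept their side of the threshold. Of the rest, 4 lost the call (NLRP1 and ZC3H6) and 1 gained it (IL1RAPL1). Other named genes, among them NINJ1, PANX1, CARD8 and CBWD2, were not among the 20, and the list counts show losses there. Without shNC replicate 3, maturation had 4 higher and 1 lower, so CARD8 and either NINJ1 or PANX1 lost the call. Without shNC replicate 1, 4 neighbours were called, so CBWD2 lost it. With a fold limit of 2, 2297 genes were called, with 0 maturation, 2 signalling and 2 neighbouring genes. With no fold limit, 8139 were called, with 13, 22 and 12 of these. Without the expression filter, 2 of the other ligands were called, IL18BP lower and IL37 higher. The IL1RN limit was 3.67% (shNC) and 0.042% (shBry) by the longest coding transcript, and 3.64% and 0.0394% without division by length. By those settings, added for these ratios after seeing the data, IL1B was 60.7% and 46.6% of IL1A in shNC and 18.7% and 14.4% in shBry, and IL1R1 was 74.9% and 71.1% of IL1RAP in shNC and 25.9% and 24.6% in shBry.

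With each library left out, 4587 to 5025 genes were called, 4 to 5 members, 1 to 1 other ligands, 1 to 2 other receptors, 5 to 9 maturation, 5 to 8 signalling, 32 to 35 response and 3 to 6 neighbouring genes. The IL1RN limit ran from 2.31 to 2.87% in shNC and from 0.0241 to 0.0293% in shBry. The fifth member was IL1R1, lower without shBry replicate 2. Deviations of samples with the same number had correlations of 0.183, -0.084 and -0.028, within the range of -0.22 to 0.227 between different numbers. With 3 libraries per group these values cannot decide whether the numbers pair the samples. The replicate block gave 4914 called genes and the same counts for the members and every list.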
